A study of Mus musculus with 8 samples.

Results

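Among 28 genes of cholesterol synthesis, its SREBP2 control, and sterol transport and uptake, Idi1 was called lower in livers with a deletion of Pkd1l1. Its estimate was 0.670 of the female Fl/Fl level (edgeR, adjusted p = 0.0411). The call was lost with no sex term and when any LKO library was left out. The other 27 genes did not pass the test. Of all tested genes, 0.396% were called lower. The 28 genes were chosen by name, with earlier results of these data known, from the 27110 genes listed in the deposited table. All 28 had enough reads to be among the 16420 tested. They comprise 6 genes of the mevalonate steps, 5 of the prenyl and squalene steps, 8 of the steps from lanosterol to cholesterol, 4 that control SREBP2, and 5 of sterol transport, storage and uptake.

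Cholesterol is built from acetyl-CoA through mevalonate, isoprenoid diphosphates, squalene and lanosterol. The transcription factor SREBP2 drives most of the enzyme genes together: when membrane sterol is scarce, the escort protein SCAP carries SREBP2 from the endoplasmic reticulum to the Golgi, where proteases release its active part, and when sterol is plentiful, INSIG proteins hold SCAP back. The liver is a main site of this synthesis and also takes up, stores, secretes and converts cholesterol to bile acids.

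The study measured RNA of mouse livers at week 7 by RNA sequencing. The 4 LKO libraries, replicates 3, 4, 12 and 13, came from female mice with a liver-restricted deletion of Pkd1l1, a polycystin-family membrane protein gene, and the 4 Fl/Fl libraries, replicates 5, 7, 9 and 10, came from mice with the Fl/Fl genotype, of which 5, 7 and 9 were female and 10 was male. All 8 were labelled with the treatment NT and with hepatocytes and cholangiocytes as cell types, and the sources used here do not name the driver of the deletion. Values per library are given below in this order of replicates, and each fold change is a log2 value, LKO (n = 4) over female Fl/Fl (n = 3), with its standard error, because a sex term absorbed the male library.

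The libraries held 71491723 to 76622375 counted reads. Pkd1l1 had 0, 0, 0 and 2 reads in the LKO libraries, against 0, 1 and 1 reads in the female Fl/Fl libraries and 0 in male Fl/Fl 10, so it could not check the genotype labels. Hepatocyte marker genes (Alb, Ttr and 6 others) summed to 125148 to 142720.4 CPM (read counts scaled to library size) in LKO, 132115 to 133973 CPM in female Fl/Fl and 83802 CPM in male Fl/Fl. The 7 cholangiocyte markers summed to 53.9 to 64.7 CPM in LKO, 64.9 to 78.2 CPM in female Fl/Fl and 56.3 CPM in male Fl/Fl. Krt7 was below 1 CPM in every library and Cldn4 was at 0 in male Fl/Fl 10. No gene of these lists, or of those for Kupffer, stellate, sinusoidal endothelial and lymphocyte markers, passed the test.

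Idi1 (ENSMUSG00000058258, chromosome 13, 8885501 to 8892451, mm10) encodes the isomerase that turns isopentenyl diphosphate into dimethylallyl diphosphate, the starter unit of all longer isoprenoids. It had 112, 122, 128 and 116 CPM in the LKO libraries, against 196, 143 and 197 CPM in the female Fl/Fl libraries, with 147 CPM in male Fl/Fl 10. Every LKO library lay below every Fl/Fl library, the male one included, and the LKO libraries lay close together. The means were 119.6 ± 6.77 CPM in LKO and 179 ± 30.7 CPM in female Fl/Fl (SD), a log2 fold change of -0.58 ± 0.12 with a 95% interval of -0.83 to -0.32 (edgeR's quasi-likelihood test, Benjamini-Hochberg adjusted p = 0.0411 over all tested genes). With no sex term, so that the male library counted among the Fl/Fl libraries, edgeR gave -0.51 (adjusted p = 0.401). The authors' deposited table, which set LKO against Fl/Fl, held a log2 fold change closer to that one. It was -0.52 with an adjusted p of 0.0492. By edgeR with the sex term, 1.02% of all tested genes were called higher, beside the 0.396% called lower, and 1.41% were called in either direction. These shares rest on single libraries too. When Fl/Fl 5 was left out, 2 genes were called in each direction, and 476 were called higher and 251 lower when Fl/Fl 9 was.

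The Idi1 call is close to the threshold and rests on single libraries, though its fold change kept its direction. Its adjusted p by edgeR was 0.0744 without LKO 3, 0.129 without LKO 4, 0.0707 without LKO 12, 0.106 without LKO 13, 0.217 without Fl/Fl 5, and 0.401 with all libraries but no sex term. Over 18 alternatives the log2 fold change ranged from -0.73 to -0.51 and the adjusted p from 0.00125 to 0.401. Alongside it, summed cholangiocyte markers were lower in every LKO library than in every female Fl/Fl library. The margin was narrow, with 64.7 CPM in LKO 12 against 64.9 CPM in Fl/Fl 9. Male Fl/Fl 10, at 56.3 CPM, lay among the LKO sums. Taken singly, 1 of the 7 cholangiocyte markers had this order, where 6.22% of all tested genes had it. Of the 8 hepatocyte markers, 5 log2 fold changes were positive and 3 (Alb, Ttr and Cyp2e1) negative, with none past the test. Hnf4a, Tat and Pck1 were higher in every LKO library than in every female Fl/Fl library, an order that 8.85% of all tested genes had. Scaled to library size, male Fl/Fl 10 lay above every LKO library for Hnf4a, among them for Tat and below them for Pck1. The part of these markers in the Idi1 result was not tested. In these bulk libraries, fewer cells of a type and less RNA per cell cannot be told apart. The labels do not state separate litters or preparations, so p-values measure only the spread between these libraries.

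**Figure D1:**
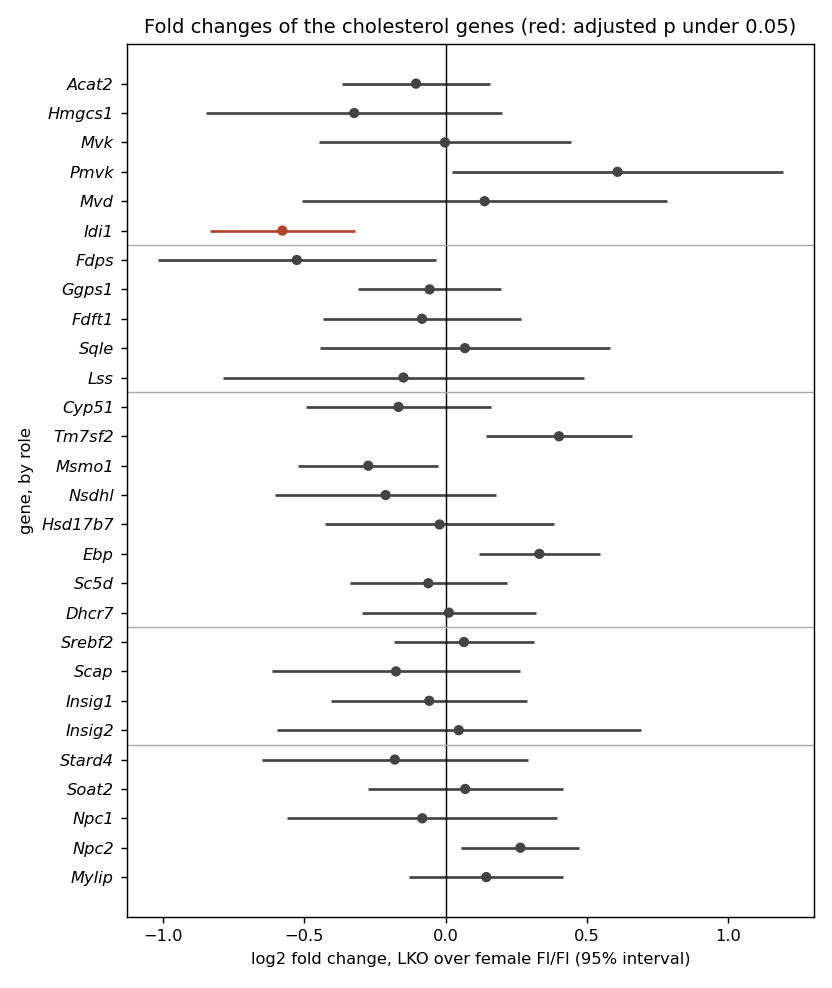
Log2 fold change of LKO over female Fl/Fl (horizontal axis) for the 28 genes, grouped by role, with points for the edgeR estimates and bars for 95% intervals. Idi1, in red at -0.58, is the only gene with an adjusted p under 0.05; the intervals of 6 other genes also leave out 0 before adjustment, where 16.1% of all tested genes had an unadjusted p under 0.05.

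The promoters of 5 of these genes show which regulatory letters lie near their starts. They are those of Idi1, the only call, of Tm7sf2, Npc2 and Scap, and of Hmgcs1. Tm7sf2, Npc2 and Scap had the smallest p of their role groups, and Scap is an SREBP2 control gene. The promoter of Hmgcs1 was chosen after the search because, of the 22 genes searched, it alone held the sterol regulatory element TCACNCCAC. Only exact matches were sought. Each runs from 250 bases before to 50 after a RefSeq start, 5′ to 3′ on the gene's strand, build GRCm38.p6; capitals mark TCACNCCAC (a sterol regulatory element, which SREBP2 binds), CCAAT (bound by NF-Y) and GGGCGG (bound by Sp1) on either strand. Fdps, the gene of the prenyl and squalene steps with the smallest p, is named only.
Idi1, chr13:8885356-8885655, plus strand: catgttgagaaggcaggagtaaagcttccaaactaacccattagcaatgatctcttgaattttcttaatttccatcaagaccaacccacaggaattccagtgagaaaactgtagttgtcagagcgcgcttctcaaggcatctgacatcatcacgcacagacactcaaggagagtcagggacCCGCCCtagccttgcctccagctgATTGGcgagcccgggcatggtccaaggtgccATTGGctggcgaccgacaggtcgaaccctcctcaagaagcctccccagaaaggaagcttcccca
Tm7sf2, chr19:6067801-6068100, minus strand: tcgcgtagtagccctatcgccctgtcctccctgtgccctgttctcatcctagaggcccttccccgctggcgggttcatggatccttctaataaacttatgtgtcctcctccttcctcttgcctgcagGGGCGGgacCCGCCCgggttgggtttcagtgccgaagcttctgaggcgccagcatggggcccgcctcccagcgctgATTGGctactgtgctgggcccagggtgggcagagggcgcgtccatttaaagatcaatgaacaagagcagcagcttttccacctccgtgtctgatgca
Npc2, chr12:84773063-84773362, minus strand: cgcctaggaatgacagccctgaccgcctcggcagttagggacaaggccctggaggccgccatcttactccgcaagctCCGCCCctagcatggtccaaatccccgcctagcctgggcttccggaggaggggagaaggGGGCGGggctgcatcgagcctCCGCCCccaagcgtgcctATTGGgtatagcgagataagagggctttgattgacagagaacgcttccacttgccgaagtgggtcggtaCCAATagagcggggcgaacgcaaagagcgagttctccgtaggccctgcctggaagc
Scap, chr9:110333106-110333405, plus strand: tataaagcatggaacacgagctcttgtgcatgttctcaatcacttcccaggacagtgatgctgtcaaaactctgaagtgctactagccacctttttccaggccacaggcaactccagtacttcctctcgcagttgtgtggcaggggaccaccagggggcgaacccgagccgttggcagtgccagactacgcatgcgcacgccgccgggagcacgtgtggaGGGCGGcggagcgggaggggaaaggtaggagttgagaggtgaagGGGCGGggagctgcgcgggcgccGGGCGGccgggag
Hmgcs1, chr13:119690101-119690400, plus strand: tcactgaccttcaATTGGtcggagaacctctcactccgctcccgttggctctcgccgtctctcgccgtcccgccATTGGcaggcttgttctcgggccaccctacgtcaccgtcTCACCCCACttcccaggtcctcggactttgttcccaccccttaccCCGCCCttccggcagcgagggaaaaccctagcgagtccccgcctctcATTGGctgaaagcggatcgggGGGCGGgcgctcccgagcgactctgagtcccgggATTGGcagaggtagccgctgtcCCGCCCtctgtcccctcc

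In Idi1, CCAAT began 45 and 14 bases before the start, both times on the opposite strand, and in Tm7sf2 it began 47 bases before the start. Hmgcs1 held TCACCCCAC 137 bases before its start. The search covered the 22 genes of the 28 that matched the RefSeq table, and a gene counted where any of its listed promoters held the motif. CCAAT was found in 20 of the 22 genes (90.9%), against 42.8% of 10779 tested protein-coding genes in the table. Of the 22 genes, 17 held it within 100 bases before a start, a count that was not taken over other genes. GGGCGG was found in 20 of 22 (90.9%), against 65.7% of the tested protein-coding genes. The E-box CACGTG was found in 5 of 22 (22.7%), against 11.2%. TCACNCCAC was found in 1 of 22 (4.55%), against 1.45%. These matches are letters in a window, and no binding was measured.

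Over the 28 genes, 17 log2 fold changes were negative and 11 positive, beside 50.5% negative over all tested genes. The median was -0.06, beside 0.00 over all tested genes, and the median absolute log2 fold change was 0.14, beside 0.18. The 28-gene median was 0.09 when Fl/Fl 9 was left out and -0.28 when both Fl/Fl 5 and 7 were. In 4 of the 28 genes the LKO and female Fl/Fl libraries did not overlap, where 15.1% of all tested genes did not. The LKO libraries all lay above the female Fl/Fl libraries in 3 of the 28 genes (Tm7sf2, Ebp and Npc2), where 8.85% of all tested genes did so, and all below them in 1 (Idi1), where 6.22% did so. In all, 7 genes had an unadjusted p under 0.05: Pmvk, Idi1, Fdps, Tm7sf2, Msmo1, Ebp and Npc2. Of all tested genes, 16.1% had one.

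The mevalonate steps, as grouped here, make isopentenyl diphosphate from acetyl-CoA and, through Idi1, turn it into dimethylallyl diphosphate. Of their 6 genes, 1 was called lower (Idi1) and 5 did not pass. Hmgcs1, the cytosolic HMG-CoA synthase, had 404, 451, 578 and 349 CPM in the LKO libraries, against 581, 386 and 707 CPM in the female Fl/Fl libraries, with 359 CPM in male Fl/Fl 10. The groups overlapped, with the highest value in Fl/Fl 9 and the lowest in LKO 13. Its log2 fold change was -0.32 ± 0.23 (edgeR adjusted p = 0.545), and the interval of -0.85 to 0.20 covers values below that of Idi1 and values above 0. It was -0.54 without Fl/Fl 7 and -0.12 without Fl/Fl 9.

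Pmvk, phosphomevalonate kinase, had 72.8, 77.4, 54.6 and 41.2 CPM in the LKO libraries, against 38.4, 31.7 and 51.0 CPM in the female Fl/Fl libraries, with 39.5 CPM in male Fl/Fl 10. LKO 3, 4 and 12 lay above all Fl/Fl libraries, while LKO 13 lay among them. The log2 fold change was 0.61 ± 0.25 (edgeR adjusted p = 0.295), numerically as large as that of Idi1 in the opposite direction, with a spread over the 8 libraries of 2.44-fold, the widest of the 28 genes.

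The other 3 genes of these steps overlapped between the genotypes. Acat2, the cytosolic acetoacetyl-CoA thiolase of the opening step, spanned 64.3 to 91.4 CPM in LKO and 77.3 to 83.7 CPM in female Fl/Fl libraries (log2 -0.10 ± 0.12, edgeR adjusted p = 0.721). Its split from the paralog Acat3, which had 89774 reads over the 8 libraries against 45988 for Acat2, is uncertain. Mvk, mevalonate kinase, spanned 22.2 to 42.0 CPM in LKO and 28.1 to 35.2 CPM in female Fl/Fl libraries (log2 -0.00 ± 0.20). Mvd, which decarboxylates mevalonate diphosphate, spanned 21.1 to 39.5 CPM in LKO and 18.2 to 35.8 CPM in female Fl/Fl libraries (log2 0.14 ± 0.28). For Idi1 itself, the paralog Idi2 had 6 reads over the 8 libraries, against 87016 for Idi1.

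**Figure D2:**
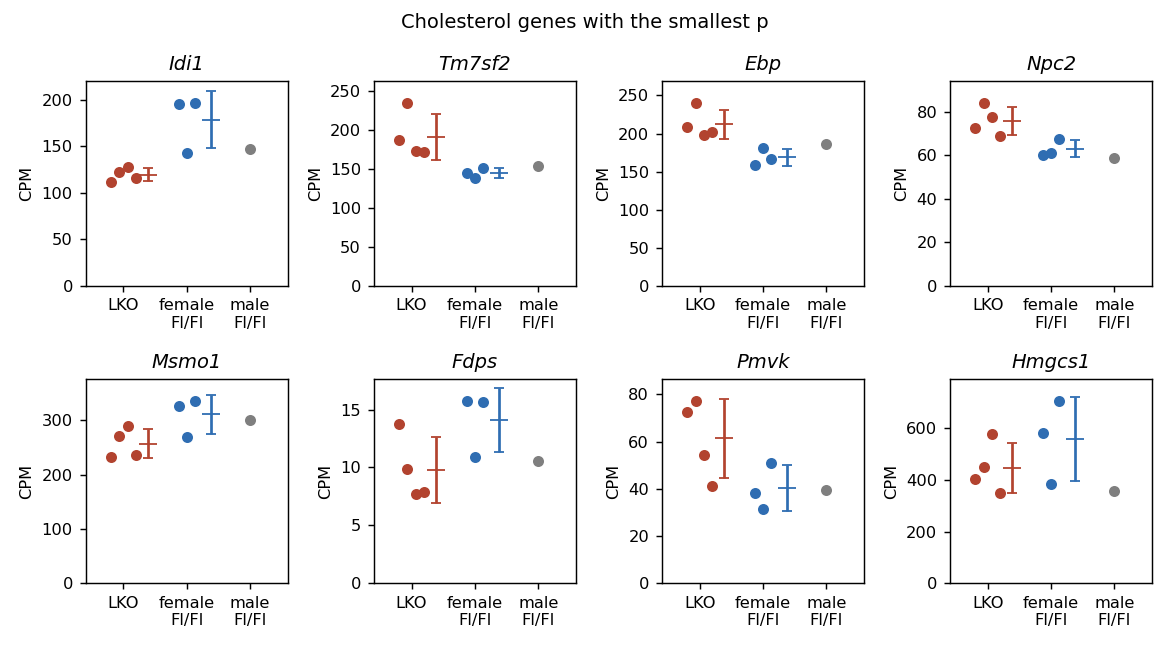
CPM per library (vertical axes, from 0) of the 8 genes with the smallest p, with dots for the LKO, female Fl/Fl and male Fl/Fl libraries and bars for mean ± SD of LKO (n = 4) and female Fl/Fl (n = 3). Idi1 separates downward, from 112 to 128 CPM in LKO against 143 to 197 CPM in female Fl/Fl; Tm7sf2, Ebp and Npc2 separate upward without passing the adjusted test, and the other 4 overlap.

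None of the 5 genes of the prenyl and squalene steps passed the test. Fdps, which joins isoprenoid units into farnesyl diphosphate, the branch point for cholesterol and other isoprenoids, had 13.7, 9.88, 7.67 and 7.86 CPM in the LKO libraries, against 15.8, 10.9 and 15.7 CPM in the female Fl/Fl libraries, with 10.5 CPM in male Fl/Fl 10. LKO 4, 12 and 13 lay below all Fl/Fl libraries and LKO 3 lay among them. The log2 fold change was -0.53 ± 0.22 (edgeR adjusted p = 0.277).

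Ggps1, which extends farnesyl to geranylgeranyl diphosphate for protein prenylation, was the steadiest gene, with a 1.24-fold range over the 8 libraries and 9.10 to 11.3 CPM in LKO and 9.86 to 11.1 CPM in female Fl/Fl libraries. Fdft1, squalene synthase, which commits farnesyl diphosphate to sterols, spanned 137 to 200.2 CPM in LKO and 145 to 204 CPM in female Fl/Fl libraries (log2 -0.08 ± 0.16, edgeR adjusted p = 0.848). Sqle, the squalene epoxidase, had 139.9, 155, 152 and 116 CPM in the LKO libraries, against 129, 90.7 and 184 CPM in the female Fl/Fl libraries, with 157 CPM in male Fl/Fl 10. Its lowest and highest values were both in female Fl/Fl libraries, and the log2 fold change of 0.07 ± 0.22 had an interval of -0.44 to 0.58. Lss, which closes the sterol rings to lanosterol, spanned 58.4 to 101 CPM in LKO and 57.4 to 119 CPM in female Fl/Fl libraries (log2 -0.15 ± 0.27). Ctsb overlaps Fdft1 by 774 bases on the opposite strand with 374629 reads, against 101037 for Fdft1, and the sources used here do not give the strand setting of the counting.

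None of the 8 genes of the steps from lanosterol to cholesterol passed either. In 2 of them all LKO libraries lay above all female Fl/Fl libraries, an order that 8.85% of all tested genes had. In both, the male library also lay below the LKO libraries. Tm7sf2, the sterol C14-reductase, had 187, 235, 173 and 173 CPM in the LKO libraries, against 145, 139 and 152 CPM in the female Fl/Fl libraries, with 154 CPM in male Fl/Fl 10. The means were 192 ± 29.6 CPM in LKO and 145 ± 6.71 CPM in female Fl/Fl, a 1.32-fold difference (log2 0.40 ± 0.12, edgeR adjusted p = 0.123); with no filter on low counts the edgeR adjusted p was 0.0484. Its row overlaps Vps51 on the same strand over 9356 bases, with 101464 reads for Tm7sf2 and 479 for Vps51 over the 8 libraries, so how reads were divided between them is uncertain. Ebp, the sterol isomerase that moves a ring double bond, had 209, 240.2, 197 and 202 CPM in the LKO libraries, against 159, 181 and 166 CPM in the female Fl/Fl libraries, with 186 CPM in male Fl/Fl 10. The means were 212 ± 19.2 CPM in LKO and 169 ± 11.3 CPM in female Fl/Fl, a 1.26-fold difference (log2 0.33 ± 0.10, edgeR adjusted p = 0.123).

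Msmo1, which removes the C4-methyl groups together with Nsdhl and Hsd17b7, had 232, 270.2, 289 and 236 CPM in the LKO libraries, against 327, 269 and 336 CPM in the female Fl/Fl libraries, with 299 CPM in male Fl/Fl 10. LKO 3 and 13 lay below all Fl/Fl libraries and the other LKO libraries lay among them (log2 -0.27 ± 0.11, edgeR adjusted p = 0.264). Cyp51, the lanosterol demethylase, spanned 228 to 273 CPM in LKO and 213 to 352 CPM in female Fl/Fl libraries (log2 -0.17 ± 0.15). Nsdhl spanned 59.7 to 88.2 CPM in LKO and 69.8 to 111 CPM in female Fl/Fl libraries (log2 -0.21 ± 0.17), and Hsd17b7 spanned 107 to 142 CPM in LKO and 88.9 to 156 CPM in female Fl/Fl libraries (log2 -0.02 ± 0.18). The last enzymes of the route overlapped as well. Sc5d, the lathosterol desaturase, spanned 628 to 878 CPM in LKO and 741 to 827 CPM in female Fl/Fl libraries (log2 -0.06 ± 0.13). Dhcr7, which reduces 7-dehydrocholesterol to cholesterol, spanned 111 to 162 CPM in LKO and 126 to 153 CPM in female Fl/Fl libraries (log2 0.01 ± 0.14).

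**Figure D3:**
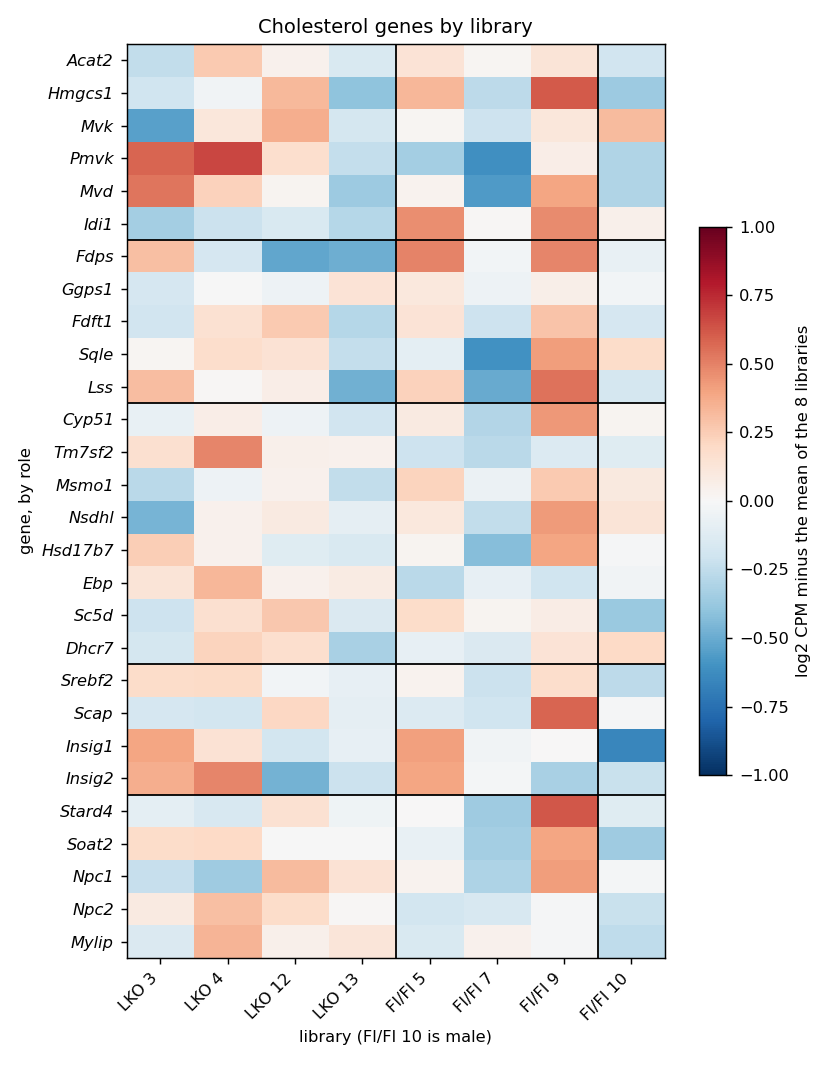
Log2 CPM of each gene minus its mean over the 8 libraries (colour), with genes in rows by role and libraries in columns, LKO left and Fl/Fl right. Idi1 is low in all 4 LKO columns, Fl/Fl 9 holds the highest value in 13 rows, and Fl/Fl 7 holds the lowest in 9.

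The 4 genes that control SREBP2 did not pass the test. Srebf2, which encodes SREBP2, had 119, 120.2, 103 and 99.3 CPM in the LKO libraries, against 108, 90.6 and 118 CPM in the female Fl/Fl libraries, with 87.3 CPM in male Fl/Fl 10. The genotypes overlapped, and the log2 fold change was 0.06 ± 0.11 (edgeR adjusted p = 0.833) with an interval of -0.18 to 0.31. Scap, the escort protein, had 142, 141, 184 and 149.6 CPM in the LKO libraries, against 145, 139 and 238 CPM in the female Fl/Fl libraries, with 158 CPM in male Fl/Fl 10. Fl/Fl 9 stood above all others, and the log2 fold change was -0.18 ± 0.19 (edgeR adjusted p = 0.713).

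Insig1, a target of SREBP2 that holds SCAP back, was the most abundant of the 28 genes per length, with 269.9 ± 49.5 FPKM in LKO and 281 ± 49.9 FPKM in female Fl/Fl (FPKM, read counts scaled to gene length and library size, as deposited). It had 995, 838, 667 and 718 CPM in the LKO libraries, against 1009, 740.2 and 763 CPM in the female Fl/Fl libraries, with 483 CPM in male Fl/Fl 10. The genotypes overlapped, and the male library was the lowest (log2 -0.06 ± 0.16, edgeR adjusted p = 0.901). Insig2, its paralog, whose liver transcript is known to be repressed by insulin, had 509.8, 557, 285 and 341 CPM in the LKO libraries, against 522, 392 and 316 CPM in the female Fl/Fl libraries, with 339 CPM in male Fl/Fl 10. Each genotype had high and low libraries, and the log2 fold change was 0.05 ± 0.27 with an interval of -0.60 to 0.69 (edgeR adjusted p = 0.957). The ratio of Insig2 to Insig1 in FPKM was 0.456, 0.592, 0.381 and 0.422 in the LKO libraries, against 0.460, 0.471 and 0.369 in the female Fl/Fl libraries, with 0.625 in male Fl/Fl 10.

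Insig2 was high in the libraries with high Arntl, in both genotypes, though the share of the 28 genes so placed was near that of all tested genes. Arntl, the clock activator, had 30.3, 26.6, 5.32 and 8.31 CPM in the LKO libraries, against 39.7, 29.5 and 8.52 CPM in the female Fl/Fl libraries, with 3.98 CPM in male Fl/Fl 10, and Dbp, an output gene of the opposite phase, had 0.606, 1.64, 54.4 and 42.2 CPM in the LKO libraries, against 2.46, 3.50 and 26.8 CPM in the female Fl/Fl libraries, with 46.1 CPM in male Fl/Fl 10. In the 4 libraries with more Arntl than Dbp (LKO 3 and 4, Fl/Fl 5 and 7) Insig2 had 392 to 557 CPM, above the 285 to 341 CPM of the other 4 (LKO 12 and 13, Fl/Fl 9 and 10). It was the only one of the 28 genes so placed (3.57%), where 2.58% of all tested genes were; Scap was the only one placed the other way, with 139 to 145 CPM against 150 to 238 CPM, where 2.03% of all tested genes were. None of 17 clock genes passed the genotype test; Nr1d1, the clock repressor, spanned 35.8 to 71.9 CPM in LKO and 58.2 to 94.5 CPM in female Fl/Fl libraries, and Per1, a clock gene that also responds to hormones, spanned 90.2 to 119.7 CPM in LKO and 50.4 to 145 CPM in female Fl/Fl libraries. With a term for this state, chosen after seeing the data, the Idi1 log2 fold change was -0.60 (edgeR adjusted p = 0.0266). The part of the clock in the Insig2 values was not tested.

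**Figure D4:**
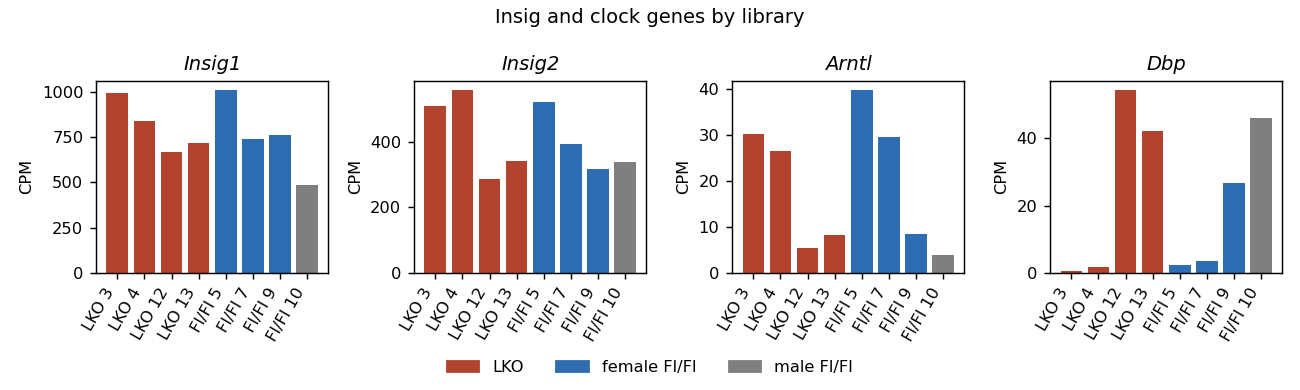
CPM per library (bars, from 0) of Insig1, Insig2, Arntl and Dbp, with LKO libraries left of female and male Fl/Fl libraries. Insig2 is high in LKO 3 and 4 and Fl/Fl 5 and 7, where Arntl is also high and Dbp is under 4 CPM.

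Of the 5 genes of sterol transport, storage and uptake, none passed. Npc2, which hands cholesterol to Npc1 in the lysosome, had 72.8, 84.2, 77.6 and 68.9 CPM in the LKO libraries, against 60.4, 61.3 and 67.8 CPM in the female Fl/Fl libraries, with 58.6 CPM in male Fl/Fl 10. All LKO libraries lay above all Fl/Fl libraries by a small step, with means of 75.9 ± 6.58 CPM in LKO and 63.2 ± 4.04 CPM in female Fl/Fl (log2 0.26 ± 0.09, edgeR adjusted p = 0.201). Its partner Npc1, the membrane exporter, spanned 101 to 161 CPM in LKO and 104 to 172 CPM in female Fl/Fl libraries and did not show that order (log2 -0.08 ± 0.21).

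Stard4, a soluble sterol carrier, had 187, 179, 222 and 194 CPM in the LKO libraries, against 200.3, 156 and 308 CPM in the female Fl/Fl libraries, with 184 CPM in male Fl/Fl 10. Fl/Fl 9 was again the highest, and without it the log2 fold change was 0.13 in place of -0.18. Soat2, which esterifies cholesterol for storage and lipoprotein export, spanned 45.1 to 52.0 CPM in LKO and 35.8 to 59.7 CPM in female Fl/Fl libraries (log2 0.07 ± 0.16). Mylip, a ubiquitin ligase that removes lipoprotein receptors from the cell surface, spanned 14.5 to 20.4 CPM in LKO and 14.5 to 16.5 CPM in female Fl/Fl libraries (log2 0.14 ± 0.12, edgeR adjusted p = 0.615).

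Per length, the levels of the 28 genes covered a wide range. Insig1, Sc5d, Insig2 and Hmgcs1 averaged 260.8, 157, 122 and 108 FPKM over the 8 libraries, and Mylip, Fdps and Ggps1 averaged 5.20, 2.84 and 2.26 FPKM. The level of Fdps is uncertain, since its row overlaps Gm43738 on the same strand over 7512 bases and Gm22935 over 104 bases, with 5 and 454 reads over the 8 libraries against 6900 for Fdps. Idi1 stood at 35.4 ± 1.89 FPKM in LKO and 52.9 ± 9.26 FPKM in female Fl/Fl, and Fdft1, its nearest neighbour in the order, at 41.1 ± 7.31 FPKM in LKO and 43.6 ± 7.58 FPKM in female Fl/Fl. Summed over the synthesis enzymes, the level was 736, 861, 849 and 683 FPKM in the LKO libraries, against 835, 688 and 929 FPKM in the female Fl/Fl libraries, with 715 FPKM in male Fl/Fl 10, and the genotypes overlapped.

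**Figure D5:**
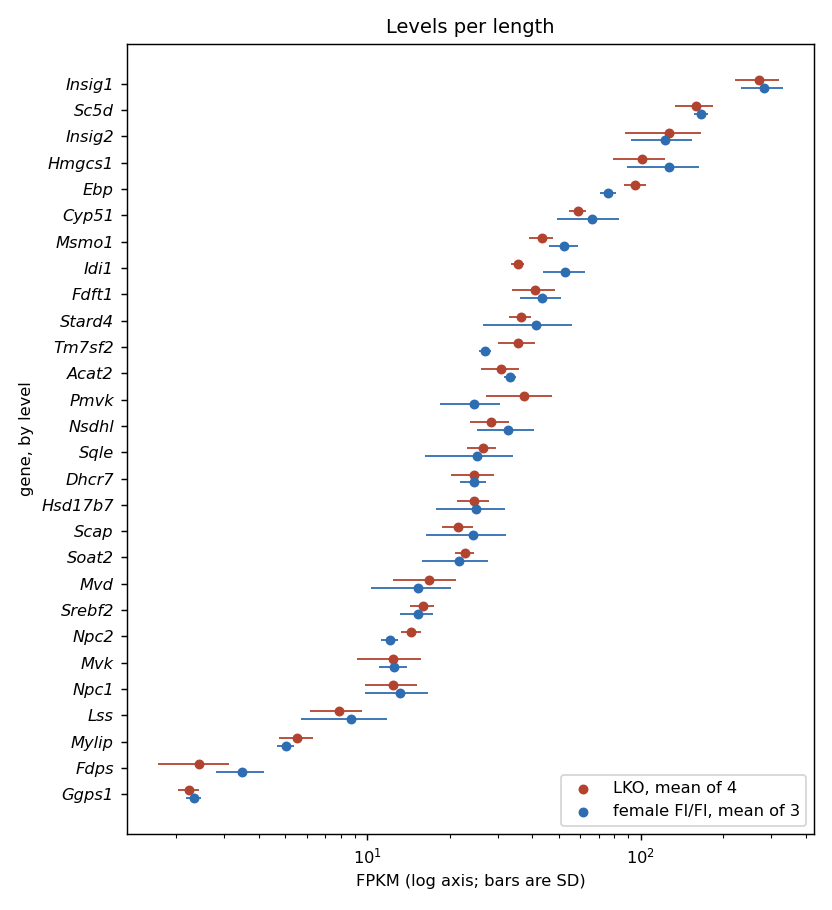
Mean FPKM (log axis) of each of the 28 genes in LKO (n = 4) and female Fl/Fl (n = 3), with bars for SD, ordered by level. Idi1 lies at 35.4 FPKM in LKO against 52.9 FPKM in female Fl/Fl, and Insig1 is at the top in both genotypes.

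Single libraries stood out across many of the genes. Fl/Fl 9 held the highest value of 13 of the 28 genes and LKO 4 of 9, where Fl/Fl 9 was highest in 14.1% and LKO 4 in 10.7% of all tested genes. Fl/Fl 7 held the lowest value of 9 genes, where it was lowest in 11.9% of all tested genes. The median deviation from the mean of the 8 libraries was -0.09, 0.15, 0.05 and -0.15 (log2) in the LKO libraries, against 0.04, -0.21 and 0.28 in the female Fl/Fl libraries, with -0.12 in male Fl/Fl 10. The SD over the mean was larger in LKO for 14 of the 28 genes, with a median of 15.6% in LKO and 18.8% in female Fl/Fl.

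Outside the 28 genes, 51 companion genes of the pathway were counted in 4 lists and none passed the test. Of 11 genes for SREBP processing and sterol sensing, 6 log2 fold changes were negative; Erlin1, an endoplasmic reticulum protein that takes part in degrading sterol enzymes, spanned 34.0 to 43.9 CPM in LKO and 46.6 to 48.3 CPM in female Fl/Fl libraries (edgeR adjusted p = 0.201), and Nr1h2, the oxysterol receptor LXR beta, spanned 47.4 to 56.1 CPM in LKO and 39.4 to 49.97 CPM in female Fl/Fl libraries (edgeR adjusted p = 0.314). Of 13 genes for other isoprenoid branches, 5 were negative; Rce1, a protease of prenylated proteins, had 15.5, 11.99, 11.8 and 13.3 CPM in the LKO libraries, against 8.49, 9.45 and 10.4 CPM in the female Fl/Fl libraries, with 14.2 CPM in male Fl/Fl 10 (edgeR adjusted p = 0.104), and Icmt, which methylates them, spanned 39.0 to 53.0 CPM in LKO and 36.9 to 40.0 CPM in female Fl/Fl libraries (edgeR adjusted p = 0.263). Of 17 genes for other sterol traffic and lipoprotein uptake, 6 were negative. Stard3, a late endosome sterol carrier, spanned 15.7 to 17.0 CPM in LKO and 13.5 to 14.5 CPM in female Fl/Fl libraries (edgeR adjusted p = 0.263). Lrpap1, a chaperone of lipoprotein receptors, spanned 37.6 to 41.1 CPM in LKO and 31.1 to 37.1 CPM in female Fl/Fl libraries (edgeR adjusted p = 0.278). Male Fl/Fl 10 lay above every LKO library for Stard3 and among them for Lrpap1 and Icmt. For Erlin1 it lay above every LKO library, as the female Fl/Fl libraries did.

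Of 10 fatty acid genes that SREBP1 controls, none passed; 8 log2 fold changes were positive, with a median of 0.17. Gpam, which starts triglyceride synthesis, had 200.1, 213, 234 and 212 CPM in the LKO libraries, against 162, 139 and 187 CPM in the female Fl/Fl libraries, with 210.1 CPM in male Fl/Fl 10. All LKO libraries lay above all female Fl/Fl libraries, with the male one among the LKO values (log2 0.40 ± 0.11, edgeR adjusted p = 0.106, and 0.0212 without Fl/Fl 9). Thrsp, a lipogenesis regulator, had 318, 511, 529 and 415 CPM in the LKO libraries, against 279.6, 339 and 214 CPM in the female Fl/Fl libraries, with 422 CPM in male Fl/Fl 10. LKO 3 lay among the Fl/Fl libraries and the other LKO libraries lay above the female ones (log2 0.67 ± 0.21, edgeR adjusted p = 0.164).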

How the data were processed

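Total RNA of 8 mouse livers was sequenced after preparation with the NEBNext Ultra kit, per the labels' protocols. The authors deposited 1 table with whole-number read counts, FPKM, normalised signal values (counts divided by a size factor per library), and their own log2 fold change with its adjusted p-value. The submitters' processing notes name edgeR, DESeq2, DESeq, featureCounts, HTSeq, STAR and fastp, with neither role nor version, and build mm10. The sources used here give neither strand setting nor annotation release. The 28 genes and the lists were chosen with earlier results of these data known.

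The deposited counts were fitted in R 4.3.3 with edgeR 4.0.16 (filterByExpr, TMM, quasi-likelihood F test, robust; genotype and sex; 8 libraries), with two-sided p-values, Benjamini-Hochberg adjustment over 16420 genes and a threshold of 0.05. Standard errors are the log2 fold change over the square root of F. CPM use TMM-scaled library sizes. Levels between genes were compared by the deposited FPKM. The fit was tested on simulated data with changes larger than any found in the 28 genes, so that test does not cover changes of their size. No libraries of the same genotype were duplicates: chi-square per degree of freedom between them was at least 35.1. Genes named beside the 28 are those past the threshold in each companion list or, with none, the 2 with the smallest p, and Arntl, Dbp, Nr1d1 and Per1 of the clock list. Alternatives were other scalings, filters, tools (DESeq2 1.42.0, limma 3.58.1), thresholds, the fit without sex, and libraries left out; a clock-state term was added after seeing the data. Promoters are from RefSeq (32851 promoters). Genes whose coordinates matched GENCODE M21 numbered 26 of 28. Some genes of the pathway are not reported here. Libraries held 71491723 to 76622375 reads, and precision rests on 4 against 3 libraries.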

Additional observations from a re-analysis of the deposited data

How the results depend on the processing

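Of the 28 genes, 12 kept their sign in all 18 alternatives and 16 did not. Only Idi1 was called lower. That count was 0 with no sex term (adjusted p = 0.401), with limma voom (0.0559), with limma trend on log2(FPKM + 1) (0.0830), at a threshold of 0.01, and without Fl/Fl 5 and 7 (0.0850), and it ranged from 0 to 1 over the fits that left out 1 library each. The count called higher was 1 with no filter on low counts (Tm7sf2) and 0 in every leave-one-out fit. The median log2 fold change of the 28 genes was -0.28 without Fl/Fl 5 and 7, and -0.15 to 0.09 leaving out 1 library. Over all tested genes, the counts called higher and lower were 1 and 0 with no sex term, 320 and 142 with no filter, 520 and 284 with DESeq2, 82 and 30 with limma trend, 8 and 18 without Fl/Fl 5 and 7, 254 and 99 with the clock-state term, 14 and 4 at a threshold of 0.01, 357 and 174 at 0.1, and 2 to 476 and 2 to 251 leaving out 1 library. The cause of these changes was not tested.

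Without Fl/Fl 5 and 7, which leaves 1 female Fl/Fl library, assumed to vary like the others, the log2 fold changes that turned were -0.26 (Mvd), -0.40 (Sqle), -0.16 (Dhcr7), 0.068 (Insig1), -0.11 (Srebf2) and -0.31 (Soat2). Others moved by over 0.3 there, to -0.66 (Stard4), -0.64 (Scap), -0.67 (Hmgcs1), -0.55 (Lss), -0.53 (Nsdhl), -0.50 (Cyp51), -0.43 (Npc1), -0.39 (Hsd17b7), 0.26 (Pmvk) and 0.41 (Insig2), and Thrsp, a companion gene, to 1.04. With no sex term, they were 0.041 (Sc5d), -0.048 (Dhcr7) and 0.10 (Insig1). With upper quartile scaling, Dhcr7 was at -0.0023, with voom at -0.0015 and with limma trend at -0.0029, and Hsd17b7 was at 0.0072 with voom and 0.0041 with limma trend. Leaving out 1 library in turn, the ranges were -0.16 to 0.13 (Mvk), -0.091 to 0.38 (Mvd), -0.22 to 0.023 (Fdft1), -0.16 to 0.36 (Sqle), -0.40 to 0.090 (Lss), -0.34 to 0.024 (Cyp51), -0.21 to 0.19 (Hsd17b7), -0.15 to 0.0060 (Sc5d), -0.074 to 0.10 (Dhcr7), -0.39 to 0.13 (Stard4), -0.18 to 0.10 (Insig1), -0.11 to 0.26 (Insig2), -0.042 to 0.15 (Srebf2), -0.32 to 0.11 (Scap), -0.092 to 0.29 (Soat2) and -0.25 to 0.12 (Npc1). The genes that kept their sign ranged from -0.54 to -0.12 (Hmgcs1), -0.37 to -0.035 (Nsdhl), -0.21 to -0.039 (Acat2), 0.45 to 0.81 (Pmvk), -0.72 to -0.51 (Idi1), -0.74 to -0.43 (Fdps), -0.12 to -0.015 (Ggps1), 0.29 to 0.45 (Tm7sf2), -0.37 to -0.22 (Msmo1), 0.27 to 0.38 (Ebp), 0.054 to 0.21 (Mylip) and 0.21 to 0.31 (Npc2). Among the companion genes named above, DESeq2 called Rce1 (adjusted p = 0.0343), Gpam (0.0387) and Thrsp (0.0165), and Gpam was also called with no filter (0.0410). Over all genes, DESeq2 called 520 higher and 284 lower of 15010, and the fit with no filter called 320 higher and 142 lower of 27110. With the window cut to 200 bases before the start, CCAAT was in 19 of 22 genes, against 32.7% of all 27025 genes with a listed promoter. Of the same 27025 genes, 41.1% held it in the full window. No paired analysis was possible because the replicate numbers differ between the genotypes.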
